A study of Mus musculus with 14 samples.

Results

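Granule cells are the small excitatory neurons that fill the inner layer of the cerebellar cortex. The genes described here are 10 transcripts used as markers of those cells: Neurod1, Zic1, Zic2, En2, Barhl1, Etv1, Cbln1, Cbln3, Fat2 and Calb2. They were chosen by symbol from a table of 48440 genes, through the Ensembl identifier of each row, and all 10 were found and passed the filter on low counts. The table holds 14 bulk RNA-seq libraries of total RNA from C57BL/6 mice. Of these, 7 came from mice labelled CARIP-/- (knockout, KO) and 7 from wild-type mice (WT). Cerebellum was represented by 3 KO and 3 WT libraries, cerebral cortex by 2 and 2 (its titles read Cerebrum), and hippocampus by 2 and 2. The labels give no age, sex or allele design, and they do not say whether a library is 1 animal or a pool, or what the numbers in the titles stand for. The p-values below therefore measure the spread between libraries.

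Granule cell precursors divide in the external layer of the young cerebellum, leave the cell cycle and migrate inward past the Purkinje cells. Their axons, the parallel fibres, then form synapses on Purkinje cell dendrites. Transcription factors of the bHLH, zinc finger, homeobox and ETS families act along this path, while cerebellins and an atypical cadherin act on the parallel fibre side of the mature circuit. Several of these genes are also used by forebrain neurons, among them Neurod1 in the dentate gyrus and Calb2 in cortical interneurons.

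Totals were 20.1 to 38.8 M counted reads per library. Cerebellar libraries held 295 to 516 CPM (counts scaled to the size of the library, on totals adjusted by the TMM method) of Gabra6, the GABA-A receptor subunit of granule cells. Markers of other tissues and cell types stood apart in several libraries. WT cerebellum 2 had a summed level of 52.3 CPM for 8 midbrain and hindbrain markers, against 5.08 to 18.3 CPM in the other cerebellar libraries, with all 8 detected. KO cortex 2 had 60.5 CPM of the same list, against 1.26 to 2.22 CPM in the other cortical libraries, and 542 CPM of 9 thalamic markers, against 95.7 to 114 CPM. In the same library 11 striatal markers summed to 1300 CPM, against 250 to 366 CPM, and 12 oligodendrocyte markers to 6070 CPM, against 1910 to 3910 CPM. The 8 choroid plexus markers summed to 615 CPM in KO cortex 2, against 15.1 to 35.6 CPM, and to 1180 CPM in WT hippocampus 2, against 88.1 to 137 CPM in the other hippocampal libraries. In WT cerebellum 1 they summed to 23 CPM, against 661 to 1410 CPM in the other cerebellar libraries. Where leaving out one of these 4 libraries turned a member's direction or changed its call, the value without it is given.

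Sequence upstream of the gene start is shown for the members at the ends of the range of regional difference: Fat2 and Cbln3, with the widest gap between cerebellum and cortex, and Etv1, with the narrowest. The stretches come from RefSeq (GRCm38.p6), are written 5′ to 3′ on the strand of the gene, and capitals mark CANNTG, the E-box core that bHLH factors such as Neurod1 bind. The Fat2 stretch lies on chr11:55312258-55312507, minus strand, in an intron of the longer GENCODE gene model, and ends just before the RefSeq start. The Cbln3 stretch lies on chr14:55884393-55884506, minus strand, and ends where a GENCODE exon begins, 136 bases before the RefSeq start. The Etv1 stretch belongs to the first of 2 RefSeq starts and ends just before it, on chr12:38779832-38780081, plus strand, in an intron of a longer model.
Fat2: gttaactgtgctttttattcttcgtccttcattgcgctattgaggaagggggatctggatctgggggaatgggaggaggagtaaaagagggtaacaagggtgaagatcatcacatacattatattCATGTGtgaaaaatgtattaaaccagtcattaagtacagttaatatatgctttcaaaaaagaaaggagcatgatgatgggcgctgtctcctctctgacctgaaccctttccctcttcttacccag
Cbln3: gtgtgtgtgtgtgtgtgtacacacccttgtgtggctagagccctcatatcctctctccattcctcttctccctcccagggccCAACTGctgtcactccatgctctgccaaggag
Etv1: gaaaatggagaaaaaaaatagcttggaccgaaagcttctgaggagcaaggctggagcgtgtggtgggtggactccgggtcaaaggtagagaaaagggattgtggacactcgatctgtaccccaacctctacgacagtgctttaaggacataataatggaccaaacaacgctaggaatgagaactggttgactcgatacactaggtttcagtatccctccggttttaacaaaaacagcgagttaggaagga
The capitals are CATGTG in Fat2, beginning 125 bases before the start, and CAACTG in Cbln3, beginning 32 bases before the end of the printed stretch and 168 bases before the start. The Etv1 stretch shown holds no CANNTG, and that of the other Etv1 start holds 3 within 250 bases. RefSeq gave 8 upstream stretches for 6 members (Barhl1 and Etv1 have 2 each), of which 7 held at least 1 CANNTG within 250 bases. The motif reads the same on either strand, and 66.2% of 32851 upstream stretches of that length in the table held it. The narrower CAGCTG, which also reads the same on either strand, stood in both Barhl1 stretches and in no other, against 13% of all stretches. These matches describe letters only.

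The first question was how specific the 10 transcripts are to the cerebellum. Every one was higher in the cerebellum than in the cortex and the hippocampus, and all 6 cerebellar libraries lay above all 8 forebrain libraries for each gene. Over all 24680 genes tested, 12.7% had that non-overlap. Against cortex, the log2 fold change of the members was 2.37 to 10.42 with a median of 4.66, where the median of all genes was 0.01. In that comparison 10 of 10 members passed upward (edgeR quasi-likelihood test, Benjamini-Hochberg adjusted p = 3.7e-08 to 0.00096), and 23% of all genes did. Against hippocampus the range was 2.11 to 7.70 with a median of 4.66, and 10 of 10 passed upward (edgeR adjusted p = 6.6e-08 to 0.00049) beside 22.6% of all genes. Both comparisons use the same cerebellar libraries, so the second is no separate support for the first. The 10 were picked as markers of a cerebellar cell, with earlier results of these data known. Their higher share of calls therefore follows from the choice and is no support for it. In bulk tissue, fewer cells of a type and less RNA per cell cannot be told apart.

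**Figure D1:**
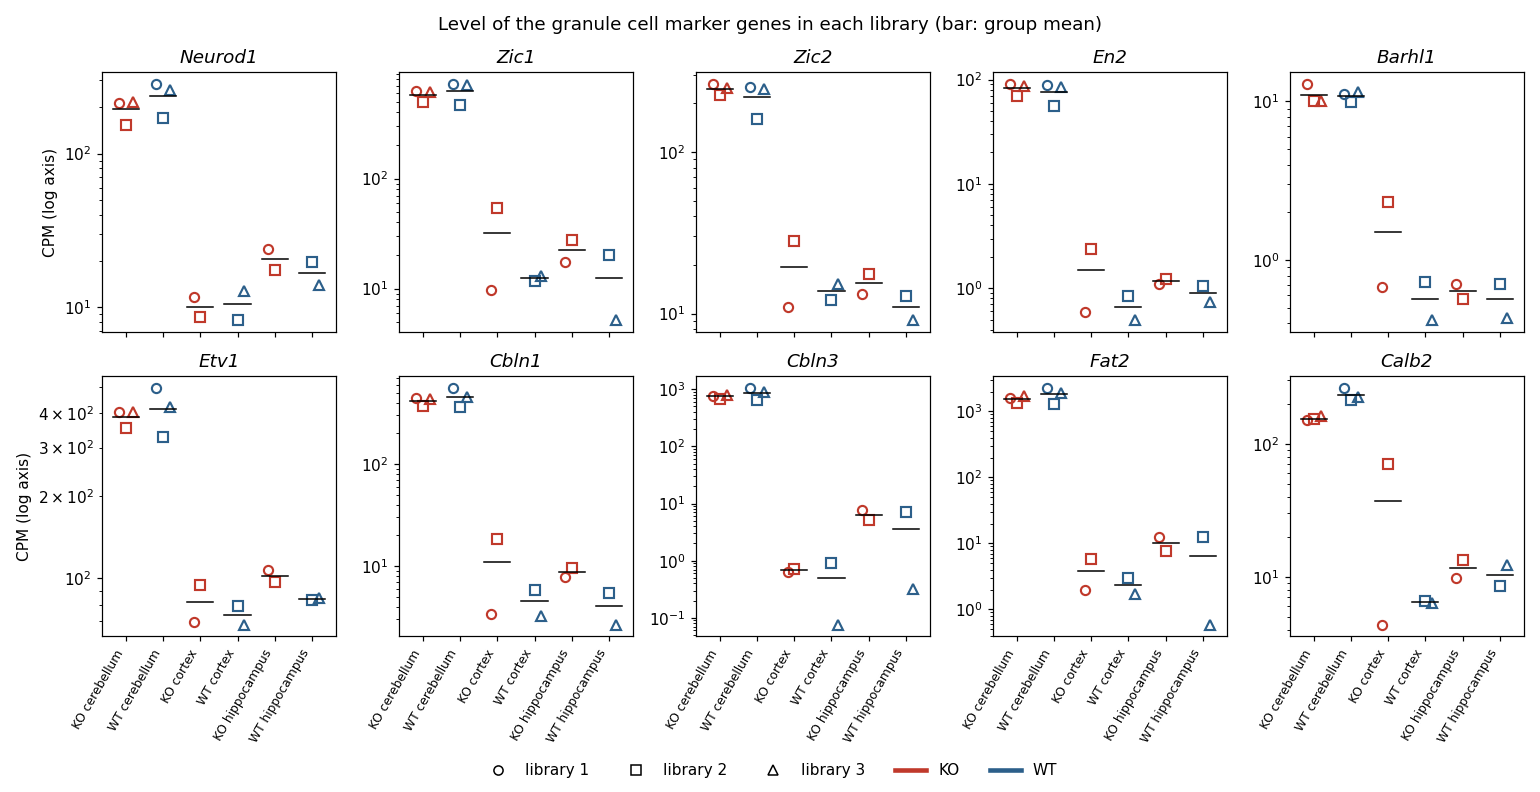
Level of each of the 10 genes in each library, in CPM on a log axis, for the 6 groups of region and genotype. Points are libraries, with the shape giving the number in the title, and bars are group means. The cerebellar libraries stand above all forebrain libraries in every panel, and KO cortex 2 stands apart from the other cortical libraries for Zic1, Barhl1 and Calb2.

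Among the transcription factors, Neurod1 encodes a bHLH factor of neuronal differentiation (chr2:79452521-79456751). It had 212, 153 and 216 CPM in KO cerebellum 1, 2 and 3 and 285, 171 and 259 CPM in WT cerebellum 1, 2 and 3. In the cortex it had 11.6 and 8.61 CPM in KO 1 and 2 and 8.24 and 12.8 CPM in WT 2 and 3, and in the hippocampus 24.1 and 17.4 CPM in KO 1 and 2 and 19.6 and 13.9 CPM in WT 2 and 3. The number 2 libraries were the lowest of each cerebellar group, and the hippocampal libraries all lay above the cortical ones. Over cortex it was 20.9-fold higher (log2 4.39 ± 0.23, SE) and over hippocampus 11.5-fold (3.53 ± 0.22). Exons of Neurod1 overlap those of Cerkl on the same strand and of the noncoding Gm26755 on the other, so a share of its reads may belong to them.

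Zic1 and Zic2 encode zinc finger factors of the granule cell lineage. Zic1 (chr9:91358058-91365810) had 621, 494 and 616 CPM in KO cerebellum and 728, 462 and 701 CPM in WT cerebellum, in the order of the library numbers. In the cortex it had 9.72 and 53.6 CPM in KO 1 and 2 and 11.8 and 12.9 CPM in WT 2 and 3. In the hippocampus it had 17.5 and 27.7 CPM in KO and 20 and 5.15 CPM in WT. KO cortex 2 and WT hippocampus 3 were the extremes of the forebrain for this gene. Zic1 was 30.4-fold higher in cerebellum than in cortex (4.93 ± 0.57) and 35.8-fold higher than in hippocampus (5.16 ± 0.58). Its exons overlap those of Zic4 on the opposite strand, and whether counting used strand is not given in the sources used here.

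Zic2 (chr14:122475435-122479852) had 265, 224 and 249 CPM in KO cerebellum and 254, 160 and 247 CPM in WT cerebellum. Cortex held 11 and 28.1 CPM in KO and 12.2 and 15.2 CPM in WT, and hippocampus 13.2 and 17.5 CPM in KO and 12.9 and 9.09 CPM in WT. The genotypes overlapped in the cerebellum, where WT 2 was the lowest library. The fold change was 14.2 over cortex (3.83 ± 0.28) and 17.9 over hippocampus (4.16 ± 0.29).

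The homeobox genes En2 and Barhl1 had the lowest cerebellar levels of the 10. En2, an engrailed factor that patterns the midbrain and cerebellum (chr5:28165694-28172166), had 91.2, 69.8 and 86.3 CPM in KO cerebellum and 88.6, 56.1 and 85.0 CPM in WT cerebellum. In the forebrain it ranged from 0.495 to 2.37 CPM, or 13 to 80 reads, with the highest value in KO cortex 2. The fold change was 77.7 over cortex (6.28 ± 0.35) and 77.3 over hippocampus (6.27 ± 0.35). Barhl1, a BarH-like homeobox factor of granule cells (chr2:28907679-28916668), had 12.9, 10.1 and 10 CPM in KO cerebellum and 11.1, 9.83 and 11.4 CPM in WT cerebellum. It had 0.419 to 0.728 CPM in 7 forebrain libraries and 2.32 CPM (78 reads, exact Poisson 95% interval 61.7 to 97.3, counting error only) in KO cortex 2. KO cortex 2 was thus the highest forebrain library for both homeobox genes. The fold change of Barhl1 was 11.6 over cortex (3.53 ± 0.32) and 17.9 over hippocampus (4.16 ± 0.34).

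Etv1 encodes an ETS factor that acts as granule cells mature (chr12:38779380-38870484). It had 404, 355 and 406 CPM in KO cerebellum and 495, 327 and 423 CPM in WT cerebellum. Cortex held 69.5 and 94.7 CPM in KO and 79.5 and 67.8 CPM in WT, and hippocampus 107 and 97.3 CPM in KO and 83.1 and 84.7 CPM in WT. Cortical and hippocampal libraries overlapped, and no forebrain library came near the cerebellar ones. Its fold change was the smallest of the 10, at 5.16 over cortex (2.37 ± 0.13) and 4.33 over hippocampus (2.11 ± 0.13).

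Cbln1 and Cbln3 encode cerebellins, of which Cbln1 is secreted by granule cells and acts at their synapses on Purkinje cells, where it binds presynaptic neurexins, and Cbln3 is a partner that needs Cbln1 for its release. Cbln1 (chr8:87468405-87472609) had 441, 369 and 438 CPM in KO cerebellum and 557, 361 and 460 CPM in WT cerebellum. Cortex held 3.40 and 18.3 CPM in KO and 5.86 and 3.27 CPM in WT, and hippocampus 7.89 and 9.68 CPM in KO and 5.45 and 2.67 CPM in WT. The cortical value of KO 2 was the highest of the forebrain. The fold change was 61.7 over cortex (5.95 ± 0.50) and 73.2 over hippocampus (6.19 ± 0.51).

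Cbln3 (chr14:55878913-55884392) had 771, 669 and 804 CPM in KO cerebellum and 1050, 644 and 900 CPM in WT cerebellum. Cortex held 0.637 and 0.712 CPM in KO and 0.920 and 0.0761 CPM in WT, from 2 to 24 reads. Hippocampus held 7.63 and 5.06 CPM in KO and 7.00 and 0.315 CPM in WT. For Cbln3, KO cortex 2 was not apart from the other cortical libraries, and WT hippocampus 3 lay within the cortical range. Its fold change over cortex, 1370 (10.42 ± 0.85), was the second highest of all 24680 genes, and over hippocampus it was 168 (7.39 ± 0.71).

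Fat2 encodes a giant atypical cadherin of parallel fibres (chr11:55250609-55336564). It had 1600, 1340 and 1740 CPM in KO cerebellum and 2260, 1280 and 1890 CPM in WT cerebellum. Cortex held 1.99 and 5.73 CPM in KO and 2.99 and 1.71 CPM in WT, and hippocampus 12.5 and 7.68 CPM in KO and 12.5 and 0.590 CPM in WT. As with Cbln3, WT hippocampus 3 was the lowest of the hippocampal libraries, here below all cortical ones too. Fat2 was higher by a fold change of 552 over cortex (9.11 ± 0.84) and 207 over hippocampus (7.70 ± 0.78). Members with a called log2 fold change of at least 5 were 4 over cortex (Cbln3, Fat2, En2 and Cbln1) and 5 over hippocampus (these and Zic1), while 0.462% and 0.559% of all genes reached that.

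Calb2 encodes calretinin, a calcium-binding protein of granule cells and unipolar brush cells in the cerebellum and of interneurons in the forebrain (chr8:110137502-110168210). It had 150, 153 and 161 CPM in KO cerebellum and 263, 213 and 226 CPM in WT cerebellum. Cortex held 4.37 and 70.5 CPM in KO and 6.63 and 6.39 CPM in WT, and hippocampus 9.81 and 13.4 CPM in KO and 8.55 and 12.2 CPM in WT. It was the only member with no overlap between genotypes in the cerebellum, and its value in KO cortex 2 was the highest of all its forebrain values. The fold change was 12.1 over cortex (3.60 ± 0.62) and 17.3 over hippocampus (4.11 ± 0.63). In the KO libraries alone the difference from cortex was 2.05 ± 0.93 on the log2 scale and did not pass (edgeR adjusted p = 0.14).

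**Figure D2:**
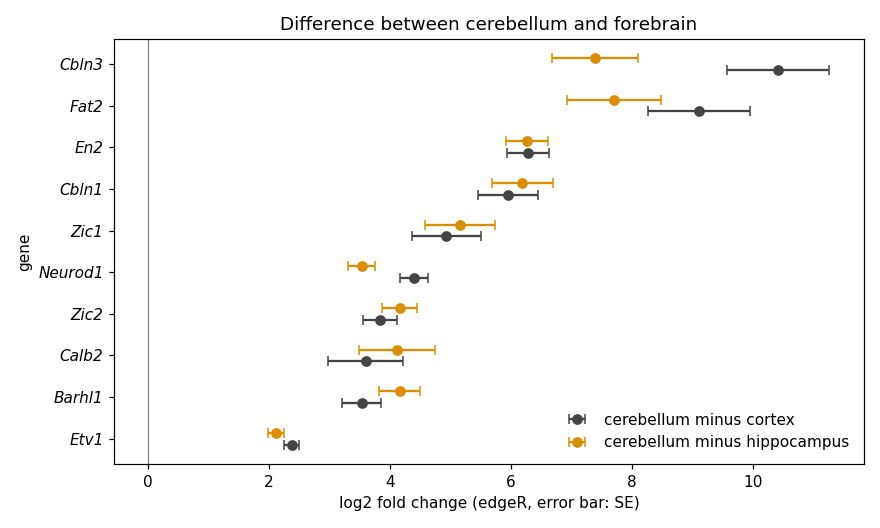
Log2 fold change of each gene between cerebellum and cortex (grey) and between cerebellum and hippocampus (orange), with the SE of the edgeR fit over 14 libraries as error bars. Cbln3 and Fat2 stand highest, Etv1 lowest, at 2.37 over cortex and 2.11 over hippocampus.

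Levels of different genes were compared per length, in TPM (counts divided by the length of all annotated exons, then scaled to the same sum in each library). In the 6 cerebellar libraries the order of the mean levels was Cbln3 646 ± 150, Cbln1 562 ± 120, Fat2 453 ± 118, Calb2 430 ± 103, Zic1 413 ± 89.7, Zic2 317 ± 69.7, Neurod1 308 ± 81.1, Etv1 118 ± 23.5, En2 87.8 ± 20 and Barhl1 10.8 ± 1.64 TPM (SD, n = 6). Neighbours in this order differed by less than the sum of their SDs, except at the steps from Neurod1 to Etv1 and from En2 to Barhl1. In the 4 hippocampal libraries the order differed: Etv1 24.9 ± 3.29, Neurod1 24.5 ± 5.73, Calb2 22.4 ± 4.57 and Zic2 16.3 ± 4.39 TPM led (SD, n = 4). There Zic1 followed at 11 ± 5.89 TPM, and then the cerebellins and Fat2 at 7.55 ± 3.63 TPM for Cbln1, 3.66 ± 2.43 TPM for Cbln3 and 2.04 ± 1.38 TPM for Fat2.

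The second question was what remains of these transcripts in the forebrain. As a percentage of the cerebellar mean CPM, the forebrain level spanned several orders of size across the 10 genes. Etv1 stood at 16.9% to 26.8% in the 8 forebrain libraries and Neurod1 at 3.81% to 11.2%. Zic2 stood at 3.90% to 12.1%, while En2 stood at 0.622% to 2.99%. The lowest were Cbln3, at 0.00944% to 0.945%, and Fat2, at 0.035% to 0.743%. Calb2 stood at 2.25% to 36.3%, Barhl1 at 3.85% to 21.3%, Zic1 at 0.854% to 8.88% and Cbln1 at 0.611% to 4.17%, each highest in KO cortex 2. So the members fall on a graded scale. Etv1 had the highest percentage in every forebrain library but KO cortex 2, where Calb2 was higher.

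For Cbln3 and Fat2 the forebrain traces were not spread evenly over the hippocampal libraries. Cbln3 had 171 and 116 reads in KO hippocampus 1 and 2 and 167 reads in WT hippocampus 2, but 8 reads in WT hippocampus 3 (exact Poisson 95% interval 3.45 to 15.8). Relative to the cerebellar mean these were 0.945%, 0.627%, 0.868% and 0.039%. Fat2 followed with 0.740%, 0.455%, 0.743% and 0.035% in the same libraries. The granule cell receptor subunit Gabra6 had 168, 106, 202 and 0 reads there, or 1.89%, 1.16%, 2.13% and 0%, where 0 reads allow up to 3.69 reads (exact Poisson 95% interval). Cbln3, Fat2 and Gabra6 thus had their lowest hippocampal levels in the same library. Neurod1, Zic1, Zic2, Cbln1, Barhl1 and En2 were also lowest there, by smaller margins, while Etv1 and Calb2 were not. WT hippocampus 3 held 5.15 CPM of Zic1 and 2.67 CPM of Cbln1. The other hippocampal libraries held 17.5 to 27.7 and 5.45 to 9.68 CPM. In reads, WT hippocampus 3 held 353 of Neurod1, 231 of Zic2 and 309 of Calb2. The other 3 held 400 to 541, 296 to 402 and 204 to 308. Purkinje cell transcripts differed among themselves in the same 4 libraries. Ppp1r17 had 34, 34, 40 and 2 reads, Pcp2 had 54, 56, 61 and 32 reads, and Slc1a6 had 153, 155, 146 and 155 reads. What brought these reads there was not tested.

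Mean CPM was lower in the cortex than in the hippocampus for Cbln3, Fat2, Neurod1 and Etv1, and higher for the other members. Gabra6 had 8 and 3 reads in KO cortex 1 and 2 and 1 and 0 reads in WT cortex 2 and 3, and Cbln3 had 15, 24, 24 and 2 reads. KO cortex 2 nonetheless held the highest cortical level of 8 members, with Calb2 at 36.3% of the cerebellar mean, Barhl1 at 21.3%, Zic2 at 12.1%, Zic1 at 8.88% and Cbln1 at 4.17%. In the other 3 cortical libraries Calb2 stood at 2.25% to 3.41%. The other members that were highest in KO cortex 2 were Etv1, Fat2 and En2. Fat2 had 5.73 CPM there, against 1.71 to 2.99 CPM in the other cortical libraries, and En2 2.37 CPM, against 0.495 to 0.843 CPM. Barhl2 had 47 reads there, against 1 to 2 reads. Cbln3, Neurod1 and Gabra6 were not highest in KO cortex 2. The thalamic, midbrain, hindbrain, striatal, choroid plexus and oligodendrocyte markers were high in KO cortex 2, as given above. Its 6 interneuron markers summed to 830 CPM, against 411 to 491 CPM in the other cortical libraries. The part of those tissues and cells in the members' levels was not tested.

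**Figure D3:**
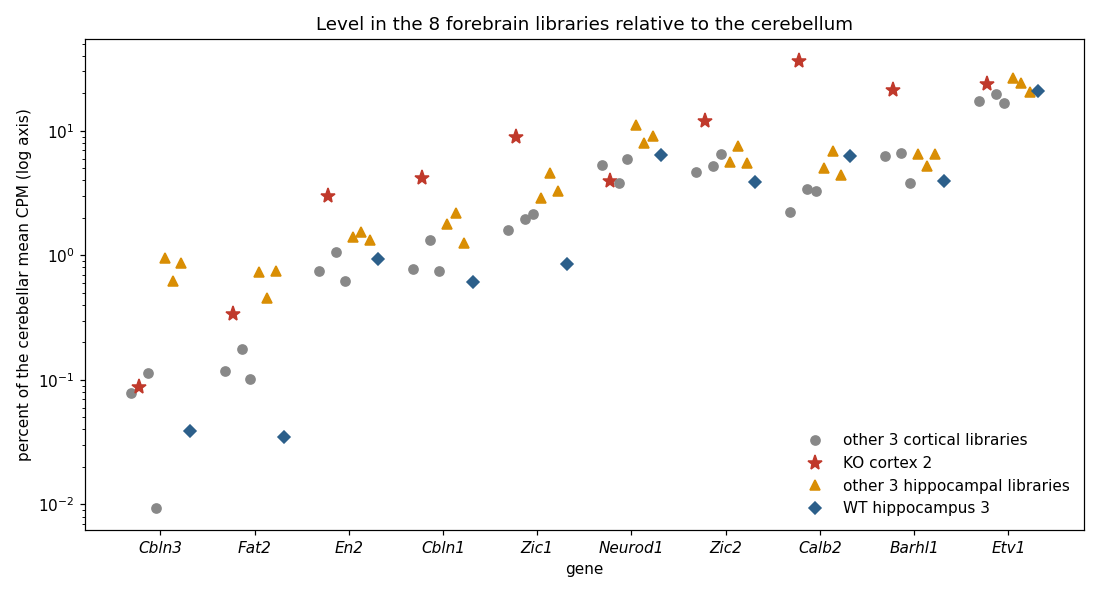
Level of each gene in each of the 8 forebrain libraries as a percentage of its mean CPM over the cerebellar libraries, on a log axis. WT hippocampus 3 (blue) lies far below the other hippocampal libraries (orange) for Cbln3 and Fat2, and KO cortex 2 (red) lies above the other cortical libraries (grey) for Zic1, Cbln1, Calb2 and Barhl1 but not for Cbln3.

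Between hippocampus and cortex, 2 members passed, both higher in hippocampus, where 5.49% of all genes passed upward. Neurod1 rose by a log2 fold change of 0.86 ± 0.22 (edgeR adjusted p = 0.023, and 0.0021 to 0.33 over the alternatives) and Cbln3 by 3.03 ± 0.77 (edgeR adjusted p = 0.032, and 0.00067 to 0.46 over the alternatives). Neither call held against the loss of single libraries. Neurod1 no longer passed without KO cortex 2, WT cortex 2, KO hippocampus 1 or WT hippocampus 2 (log2 fold changes of 0.72 to 0.75, edgeR adjusted p = 0.076 to 0.1). Cbln3 no longer passed without KO cortex 1 or 2, WT cortex 3, or KO hippocampus 1 or 2 (2.59 to 3.17, edgeR adjusted p = 0.054 to 0.096), nor without WT hippocampus 2, at 1.28 (edgeR adjusted p = 0.31). Neurod1 was also the only member whose 4 hippocampal libraries all lay above the 4 cortical ones, beside 8.9% of all genes. Fat2 had 1.41 ± 0.68 and did not pass, but passed at 1.88 ± 0.36 without WT hippocampus 3. Without WT hippocampus 2, Fat2 and En2 turned to −0.32 and −0.12. Calb2 had −0.51 ± 0.60, and without KO cortex 2 it was higher in hippocampus, at 1.03 ± 0.15 (edgeR adjusted p = 0.00067). Without KO cortex 2, Zic1, Zic2 and Cbln1 also turned from lower to higher in hippocampus, at 0.61, 0.08 and 0.59, and did not pass. Without KO cortex 1 instead, Calb2, Barhl1 and Zic2 passed as lower in hippocampus, at −0.96, −0.93 and −0.60 (edgeR adjusted p = 0.00067, 0.029 and 0.048). So for Calb2, Zic1, Zic2 and Cbln1 the order of cortex and hippocampus depended on whether KO cortex 2 was in the fit.

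The third question was whether the knockout changed these transcripts in the cerebellum. With all 14 libraries in the fit and no pairing, no member passed (edgeR adjusted p = 1 for each), no gene of the 24680 did (0%), and none of the members had an unadjusted p under 0.05, beside 3.18% of all genes. Of the 10, 7 were lower and 3 higher in KO, and the median log2 fold change was −0.14, where all genes had −0.01. Only Calb2 had all 3 KO libraries below all 3 WT libraries, beside 4.52% of all genes. Its mean was 155 ± 6.00 CPM in KO and 234 ± 26.0 CPM in WT (SD, n = 3 each). Its log2 fold change was −0.60 ± 0.66 (SE). All libraries share 1 estimate of the spread per gene in this fit. Without KO cortex 1, and likewise without KO cortex 2, the SE of the same cerebellar difference was 0.14. Either omission leaves 1 KO cortex library, and so no spread within that group. In a fit of the cerebellar libraries alone the SE was 0.10 (edgeR adjusted p = 0.97).

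The cerebellar libraries are numbered 1 to 3 in each genotype. Deviations from the group means correlated at 0.78 between the number 2 libraries, and at 0.29 and 0.38 for numbers 1 and 3. KO 1 with WT 3 and KO 3 with WT 1 correlated at 0.35 and 0.49. The data therefore set number 2 apart but do not single out equal numbers as pairs for 1 and 3. When the fit took the number as a block, over the cerebellar libraries alone, Calb2 passed at −0.60 ± 0.09 (edgeR adjusted p = 0.0043), as 0.348% of all genes did in that direction. It was the only member to do so, and Neurod1 came next at −0.28 ± 0.08 (edgeR adjusted p = 0.21). En2, Zic2 and Barhl1 were higher in the knockout by 0.12 ± 0.09, 0.18 ± 0.09 and 0.02 ± 0.15 in that fit and did not pass. The remaining members had −0.08 to −0.19. In paired fits with 1 pair left out, chosen after the data were seen and each with 1 residual degree of freedom per gene before the spread is shared across genes, Calb2 had −0.49 ± 0.08 without pair 1, −0.64 ± 0.11 without pair 2 and −0.65 ± 0.12 without pair 3 (edgeR adjusted p = 0.0067, 0.002 and 0.0038). Markers of other cells moved in the same fit over all 3 pairs. All 12 oligodendrocyte markers were on the lower side (median −0.62), and 2 passed. Of the astrocyte and Bergmann glia markers 3 of 8 passed as lower, of the meningeal markers 2 of 10, and of the midbrain and hindbrain markers 1 of 8. The 8 choroid plexus markers were all on the higher side (median 0.80), and none passed, nor did any of the 11 Purkinje cell or 3 unipolar brush cell markers. Their part in the Calb2 difference was not tested. Without WT cerebellum 2, Zic2, Barhl1 and En2 turned to −0.03, −0.03 and −0.07 in the unpaired fit, and without WT cerebellum 1, Cbln1 and Etv1 turned to 0.02 and 0.05.

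Among the cerebellar libraries, WT cerebellum 2 was the lowest library for 8 of the 10 and WT cerebellum 1 the highest for 7. The summed level of the 10 was 3690 CPM in WT 2 and 6000 CPM in WT 1, with 3840 to 5210 CPM in the other 4 libraries. In WT cerebellum 2, 12 oligodendrocyte markers summed to 9460 CPM, against 2410 to 4560 CPM in the others, and 11 Purkinje cell markers to 3720 CPM, against 4620 to 6290 CPM. The part of these in the members' levels was not tested.

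Each member was then set against the others. For Calb2, relative to the mean of the other 9 genes, and centred over the 6 libraries, its log2 level was −0.42, −0.09 and −0.28 in KO 1, 2 and 3 and 0.18, 0.50 and 0.10 in WT 1, 2 and 3. Its difference between genotypes was −0.53, and all KO values lay below all WT values (exact permutation test, 2-sided p = 0.1, the smallest that 3 against 3 allows). Zic2 and En2 showed the opposite order relative to the others, at 0.34 and 0.28 (exact permutation p = 0.1 each). For the other 7 genes the difference was −0.18 to 0.16, with overlapping libraries (exact permutation p = 0.2 to 1). These 10 relative values are not independent, since each gene is set against the rest, and none can pass an adjustment at this size. Eomes, a marker of unipolar brush cells, some of which also make calretinin, had 17.8, 19.1 and 22.5 CPM in KO cerebellum. In WT cerebellum it had 16.4, 12.5 and 51.2 CPM. The 3 unipolar brush cell markers summed to 31.8 to 33.8 CPM in KO cerebellum and 23.9 to 67.8 CPM in WT cerebellum. The part of unipolar brush cells in the Calb2 difference was not tested.

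**Figure D4:**
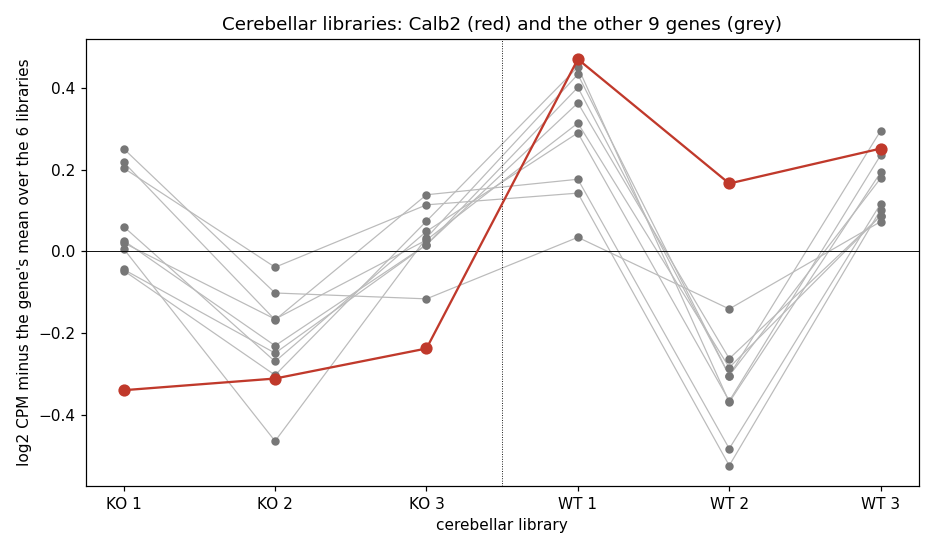
Log2 CPM of each gene in the 6 cerebellar libraries, minus its own mean over them, with Calb2 in red and the other 9 genes in grey. WT 2 is the lowest point of 8 of the 9 grey lines, while Calb2 is below 0 in the KO libraries and above 0 in the WT libraries.

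In the cortex no member and no gene (0%) passed between genotypes. Of the members, 9 were higher in KO, and the median log2 fold change was 0.98, where all genes had 0.02. For no member did both KO libraries lie above both WT libraries, beside 14% of all genes. Calb2 (2.53 ± 0.88), Barhl1 (1.41 ± 0.48) and En2 (1.21 ± 0.53) had an unadjusted p under 0.05 (0.017, 0.012 and 0.045), beside 7.39% of all genes, and their edgeR adjusted p was 0.67 to 0.68. These differences rested on KO cortex 2. Without it Calb2 had −0.59 ± 0.24, Cbln1 −0.45 ± 0.46, Zic1 −0.36 ± 0.66, Zic2 −0.34 ± 0.30, Fat2 −0.25 ± 1.39, En2 −0.19 ± 0.50 and Etv1 −0.10 ± 0.20, and Barhl1 0.23, while Neurod1 turned to 0.13. Without KO cortex 1 instead, 5 members and 2884 genes passed. With 2 libraries per genotype, a KO difference and a difference of that library cannot be told apart.

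In the hippocampus all 10 members were higher in KO, by log2 fold changes of 0.16 to 1.12 and a median of 0.43, where all genes had −0.00. Both KO libraries lay above both WT libraries for 4 members (Cbln1, En2, Etv1 and Zic2), beside 18.1% of all genes. None passed (edgeR adjusted p = 1 for each), no gene did (0%), and no member had an unadjusted p under 0.05, beside 1.91% of all genes. Cbln1 had the widest difference, at 1.12 ± 0.65, from 8.79 ± 1.27 CPM in KO and 4.06 ± 1.96 CPM in WT (SD, n = 2 each). WT hippocampus 3, the library with the fewest reads of Cbln3, Fat2 and Gabra6, is 1 of the 2 WT libraries. Without it Cbln3 had −0.14 ± 0.53, Fat2 −0.31 ± 0.53 and Barhl1 −0.15 ± 0.64, and without WT hippocampus 2 Calb2 had −0.06. Cbln1, Zic1, Zic2 and En2 had 1.12, 0.85, 0.48 and 0.38 with all libraries. They had 0.69, 0.18, 0.25 and 0.16 without WT hippocampus 3, while Calb2 went from 0.17 to 0.45. The knockout effect in the cerebellum did not differ from that in the cortex (log2 difference −3.13 to −0.24, edgeR adjusted p = 0.79 to 0.92) or the hippocampus (−1.26 to −0.14, adjusted p = 1) past the threshold for any member.

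**Figure D5:**
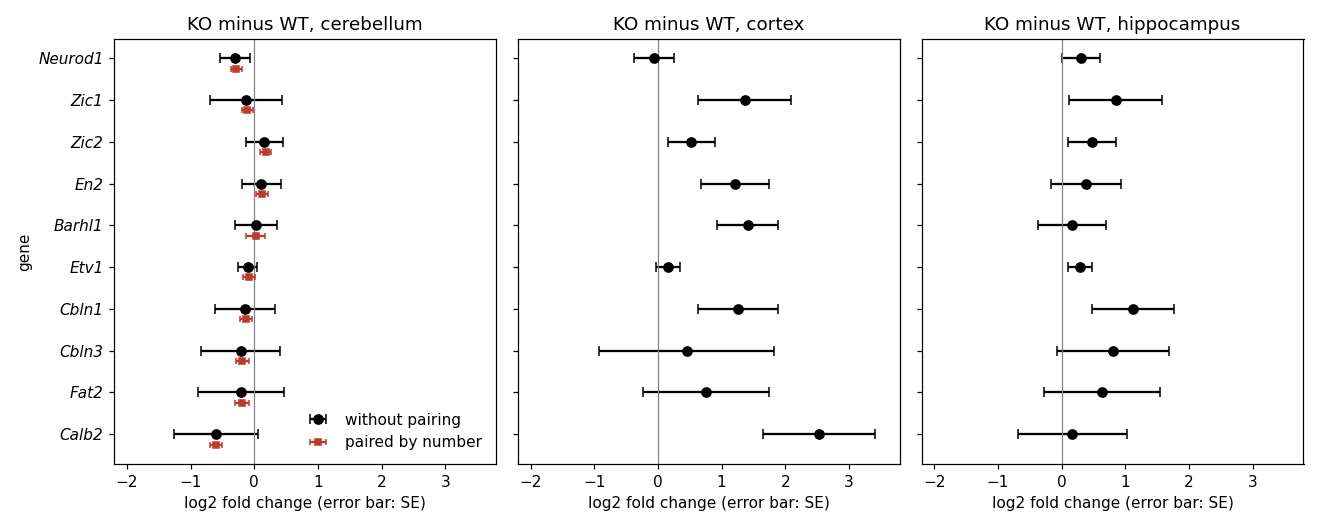
Log2 fold change of each gene between KO and WT libraries in each region, with the SE of the edgeR fit as error bars. Black points are the fit over 14 libraries and red squares the cerebellar fit paired by library number, in which Calb2 (−0.60) is the only gene of the 10 that passed.

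Other transcripts of granule cells behaved less uniformly than the 10. Of 14 further granule cell genes, 11 passed as higher in the cerebellum than in the cortex and 1 as lower, beside 23% and 25.3% of all genes. The median log2 fold change of the 14 was 1.36. Those with the smallest p were Pax6, a homeobox factor of the lineage (3.69 ± 0.17), Chn2, a Rac-regulating protein (4.04 ± 0.23), Grin2c, an NMDA receptor subunit (2.65 ± 0.17), and Reln, the secreted protein reelin (2.39 ± 0.16). Slc17a7, the vesicular glutamate transporter that cortical and hippocampal neurons also use, was lower by −1.60 ± 0.12. Between genotypes in the cerebellum 0 of the 14 passed, beside 0% of all genes, and the most abundant, Reln and Chn2, had −0.06 ± 0.19 and 0.08 ± 0.24.

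Of 17 other factors of the granule cell lineage 16 were tested. In the cerebellum against the cortex 11 passed as higher and 3 as lower, beside 23% and 25.3% of all genes. The median of the 16 was 1.43. Zic5, Nfia, Gli1 and Meis1 led by p, with log2 fold changes of 3.68 ± 0.26, 1.19 ± 0.10, 1.84 ± 0.17 and 4.27 ± 0.35. The 3 that passed as lower were Mycn (−1.13 ± 0.18), Nhlh1 (−3.54 ± 0.80) and Meis2 (−2.54 ± 0.91). Nhlh1 was near the floor, at 0 to 3 reads in the cerebellar libraries and 2 to 13 reads in the cortical ones. Meis2 had 41.8 CPM in KO cerebellum 2 and 69.4 CPM in WT cerebellum 2, against 2.56 to 5.71 CPM in the other cerebellar libraries. Among 9 cerebellin relatives and partners, 4 passed as lower in the cerebellum than in the cortex: C1ql3, Grid1, Cbln4 and Cbln2. In that comparison 1 passed as higher, and of all genes 25.3% passed as lower and 23% as higher. Against hippocampus 3 passed upward and 2 downward, beside 22.6% and 24.7% of all genes. The neurexin genes Nrxn2 (0.51 ± 0.09) and Nrxn3 (0.26 ± 0.08) were among those upward, and C1ql3 and Grid1 were those downward. None of these lists had a member that passed between genotypes in any region.

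The profile of the 10 over the 14 libraries was set beside that of 11215 other genes with a mean log2 CPM of at least 3 in the cerebellum. Among the highest Pearson correlations with the mean of the members' centred log2 CPM were those of Skor2 (0.996), Arhgef33 (0.994), Barhl2 (0.993) and Plekhd1 (0.990). Skor2 is a Purkinje cell factor and Barhl2 the paralogue of Barhl1. These values describe a difference between regions that all points share, over 14 libraries, and carry no test. Each member's correlation with the mean of the other 9 was 0.941 for Calb2, the lowest, to 0.996 for Cbln1.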

How the data were processed

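The authors deposited read counts, 1 column per library and 1 row per gene, as whole numbers that were not normalized. Per the submitters' processing notes, the tools were Trim Galore 0.6.4, cutadapt 2.10, STAR 2.7.3a and featureCounts 2.0.1, with the builds GRCm38.p6 and mm10. The sources used here do not give the annotation release, the use of strand or the treatment of reads that map to several places.

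Symbols, coordinates and exon lengths came from GENCODE M21 (GRCm38), in which 48058 of 48440 identifiers matched without their version. Low genes were removed with filterByExpr (24680 remained), and TMM scaling and the robust quasi-likelihood test of edgeR 4.0.16 (R 4.3.3) were applied to all 14 libraries and 6 groups (coefficient of variation 24.7%, residual df 8). Adjustment was by Benjamini-Hochberg over all genes with a threshold of 0.05. The SE is the log2 fold change over the root of F. Region comparisons weight KO and WT equally. TPM was computed from the counts and the union of exons. The method was tested on simulated data with an even spread smaller than that of these libraries, so that test does not cover libraries that stand apart. DESeq2 1.42.0, limma 3.58.1 (voom), RLE scaling, other filters, blocks and left-out libraries served as alternatives.

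The 10 members, the other lists and the tests were chosen with earlier results of these data known. All 10 were named. Of every other list, up to 4 passing genes with the smallest p were named, or else the 2 most abundant. Slc17a7, Mycn, Nhlh1, Meis2, Gabra6, Ppp1r17, Pcp2, Slc1a6 and Eomes were named outside this rule, after their values were seen. Likeness took the 5 genes with the highest correlation. Some genes that these rules name are not reported here. Deviations of cerebellar libraries from their group means correlated at 0.29, 0.78 and 0.38 between equal numbers over 15943 genes, all above the bound of 0.1 for treating them as pairs, and at 0.35 for KO 1 with WT 3 and 0.49 for KO 3 with WT 1. Since deviations within a group sum to 0, the value for number 2 raises those among numbers 1 and 3. No paired fit was made for cortex and hippocampus, whose genotypes share only number 2. No 2 libraries agreed within sampling noise.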

Additional observations from a re-analysis of the deposited data

Results flagged for a closer look

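In the 4 cortical libraries, 3 of the 10 genes had 1 library farther from the rest than Dixon's 95% critical value for 4 samples, and each time it was KO cortex 2. Its Calb2 level was 70.5 CPM, where the other cortical libraries held 4.37 to 6.63 CPM. Its Zic1 level was 53.6 CPM beside 9.72 to 12.9 CPM, and its Barhl1 level 2.32 CPM beside 0.419 to 0.728 CPM. These were 3 of 30 sets of libraries examined. Chance gives such a gap in about 1 of 20 for independent sets of normally distributed values. The sets here share libraries and pool the genotypes, and all 3 gaps came from KO cortex 2, so the 2 shares cannot be compared.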

How the results depend on the processing

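The call of all 10 members over hippocampus held under every setting tried, and over cortex under every setting but the KO libraries alone (9, without Calb2). Leaving out 1 library at a time gave 10 of 10 in both comparisons, with 10161 to 13124 genes over cortex and 9679 to 12920 over hippocampus. In the WT libraries alone 6914 and 6967 genes passed, and in the KO libraries alone 7933 and 7052, with fewer samples in each fit. Between hippocampus and cortex 1132 genes passed in WT alone and 638 in KO alone. There 0 members passed in WT alone and with limma voom, and 1 in KO alone, with no filter on low counts and with the replicate block of genotype and number. Zic1 turned to 0.02 and Calb2 to 0.67 in WT alone and En2 to −0.40 in KO alone. Leaving out 1 library gave 1565 to 4195 genes and 0 to 4 members, and log2 values of −0.88 to 0.61 for Zic1, −0.60 to 0.08 for Zic2, −0.61 to 0.59 for Cbln1, −0.32 to 1.90 for Fat2, −0.30 to 0.69 for En2 and −0.96 to 1.03 for Calb2. The cause was not tested.

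Between genotypes, the replicate block by number raised the cerebellar calls from 0 to 104 genes and 1 member, Calb2, and changed no other member's call there. With 1 pair left out, a setting chosen after the data were seen, the block gave 234, 64 and 241 genes without pair 1, 2 and 3 and 1 member, Calb2, each time. Without pair 1, Barhl1 turned to −0.08 and Etv1 to 0.02. The unpaired fit without the number 2 cerebellar libraries called 0 genes. DESeq2 called 2 genes in the cerebellum, 53 in the cortex and 2 in the hippocampus, and no member. In the cortex 1 gene passed with no filter, and in the hippocampus 7 in its libraries alone. Leaving out 1 library gave 0 to 1 genes and 0 members in the cerebellum, 0 to 2884 and 0 to 5 in the cortex and 0 and 0 in the hippocampus. The KO effect differed between cerebellum and cortex for 0 to 1459 genes and 0 to 4 members, highest without KO cortex 1, and between cerebellum and hippocampus for 0. In the cerebellum the log2 values with 1 library left out were −0.03 to 0.27 for Zic2, −0.29 to 0.02 for Cbln1, −0.10 to 0.09 for Barhl1, −0.24 to 0.05 for Etv1 and −0.07 to 0.22 for En2. In the cortex they were −0.36 to 0.26 for Neurod1, −0.36 to 2.09 for Zic1, −0.34 to 1.01 for Zic2, −0.45 to 1.97 for Cbln1, −0.47 to 3.06 for Cbln3, −0.10 to 0.33 for Etv1, −0.25 to 1.25 for Fat2, −0.19 to 1.79 for En2 and −0.59 to 3.41 for Calb2. In the hippocampus they were −0.14 to 4.31 for Cbln3, −0.15 to 0.56 for Barhl1, −0.31 to 4.09 for Fat2 and −0.07 to 0.45 for Calb2. Where leaving out a library left 1 in a group, that library was assumed to vary like the other groups. Depth limits Cbln3, Gabra6, Barhl1 and En2 in the forebrain, at 0 to 202 reads.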
